A study of Mus musculus with 14 samples.

Results

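Natural killer (NK) cells and innate lymphoid cells are made from lymphoid progenitors by a small set of transcription factors. The genes described here are 7 of these factors, Eomes, Tbx21, Nfil3, Zbtb16, Rora, Tox and Prdm1, among 14256 named genes tested on 14 Agilent arrays of mouse thymocytes and thymic leukemias. They are a list of names, drawn up with earlier results of these data known. The scanner files carry no gene symbols, so each member was found through the RefSeq accession of its probe, and all 7 were found, with 8 probes in all (2 for Eomes and 1 for each of the others). All 7 passed the filter on dim signals.

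The arrays came from C57BL/6 mice that had received bone marrow from donors carrying Cre-ERT2, a recombinase that acts only when tamoxifen is present. The control donors (WT) carried Cre-ERT2 alone, and the others carried it with Ezh2flox/flox, with p53flox/flox or with both, so that Ezh2Δ/Δ (Ezh2-deleted), p53Δ/Δ (p53-deleted) and Ezh2Δ/Δp53Δ/Δ (double-deleted) cells arose in transplanted marrow of every lineage. Recipients were lethally irradiated CD45.1+ wild-type mice. Deletion followed 4 weeks after transplantation, and thymocytes were sorted at 3 months. All were CD4-CD8-. DN1 cells were CD44+ without CD25, DN2 cells carried both antigens and DN3 cells were CD25+ without CD44, with 1 array for each of the 4 genotypes at each of the 3 stages. The other 2 arrays held leukemic DN2 cells of 2 Ezh2Δ/Δp53Δ/Δ mice, ETP-ALL 13 and ETP-ALL 19, whose acute lymphoblastic leukemia was of the early T cell precursor (ETP) kind. The gates as described named no donor marker and no NK marker, and one protocol note speaks of bone marrow where the sample labels say thymus. No source states how many mice went into an array.

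T-bet, the product of Tbx21, and Eomes are the T-box factors that drive NK cell maturation and interferon gamma production. Nfil3 acts early in NK and innate lymphoid commitment, Tox supports the early innate lymphoid progenitor and T cell development, and Zbtb16 (PLZF) marks innate lymphoid precursors and innate-like T cells. Rora (ROR alpha) is needed for group 2 innate lymphoid cells, and Prdm1 (Blimp-1) is a repressor active in effector lymphocytes and plasma cells. In the thymus DN1 cells still hold NK and innate lymphoid potential, which is lost as cells pass through DN2 and commit to the T lineage. EZH2 is the enzyme through which Polycomb silences lineage regulators by histone methylation, and p53 is the DNA damage-responsive tumor suppressor.

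The signals of the array limit what can be read. The 75th percentile of the processed signal was 61.3 to 123 on the 6 Ezh2-deleted and p53-deleted arrays, which shared a slide, and 271 to 524 on the other 8 arrays, and the share of probes well above background ran from 40.3% to 50.4%. WT cells and the DN2 and DN3 cells of the double-deleted genotype shared another slide, double-deleted DN1 was alone on a slide and both leukemias shared a slide. Trp53, which encodes p53, was not well above background on any p53-deleted array and was at -3.88, -2.40 and -0.92 on the double-deleted arrays (DN1, DN2, DN3), against 0.11 to 1.68 on WT and Ezh2-deleted arrays. The Ezh2 probe was as bright on Ezh2-deleted arrays (2.78 to 3.89) as on WT arrays (2.36 to 4.43), and whether it lies in the deleted part is not known here. Il2ra, which encodes the sorted antigen CD25, rose by 5.10 ± 0.37 (SE, adjusted p = 0.000493) from DN1 to DN2. Of the sex-linked genes, Xist was measured above background on the Ezh2-deleted arrays (3 of 3) and on no other, and the Y-linked Ddx3y and Eif2s3y on all arrays but these, so these genes went with that genotype, and a part of sex in the results was not tested.

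RefSeq promoter windows (GRCm38.p6, 250 bases before to 50 after the gene start) were at hand for 5 of the 7 genes. Those of Eomes and Tbx21 are shown because these were the 2 members that fell together between DN1 and DN2. Capitals mark CpG dinucleotides, the sites of DNA methylation, which are dense at many Polycomb targets. The Eomes window lies on the plus strand at chr9:118477939-118478238 and the Tbx21 window on the minus strand at chr11:97115282-97115581.
Eomes: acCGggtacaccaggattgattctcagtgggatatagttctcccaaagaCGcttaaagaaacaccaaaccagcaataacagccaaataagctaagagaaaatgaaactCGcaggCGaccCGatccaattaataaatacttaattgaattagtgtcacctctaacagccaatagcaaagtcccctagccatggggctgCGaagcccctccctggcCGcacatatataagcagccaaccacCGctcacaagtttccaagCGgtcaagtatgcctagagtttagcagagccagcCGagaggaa
Tbx21: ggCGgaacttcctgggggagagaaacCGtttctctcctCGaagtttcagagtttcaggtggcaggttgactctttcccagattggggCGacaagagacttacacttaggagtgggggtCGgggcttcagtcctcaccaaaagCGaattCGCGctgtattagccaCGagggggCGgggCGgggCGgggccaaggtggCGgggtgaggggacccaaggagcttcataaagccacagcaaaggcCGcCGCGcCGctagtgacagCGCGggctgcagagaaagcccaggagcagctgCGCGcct
The Eomes window held 10 CpGs and the Tbx21 window 21, against a median of 7 over 32841 windows of the same length, and 43.5% and 24.8% of all windows held as many. The Nfil3 window was the most CpG-rich of the 5 with 54, a number reached by 0.347% of all windows, and the Rora and Prdm1 windows held 28 and 20. A T-box core (AGGTGTGA, either strand) was found in none of the 5 windows and in 1.28% of all windows. The ROR half-site (AGGTCA, either strand) was in the Nfil3 window alone among the 5 and in 16.3% of all windows, the Runx core (TGTGGT, either strand) in none and in 16.8%, and the E-box (CANNTG, its own reverse complement) in those of Tbx21, Nfil3 and Prdm1 and in 72.3%. These matches are descriptions of the letters in these windows.

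Levels are given as log2 of the processed signal minus the 75th percentile of the same array, so that 0 is the brightness of the 75th percentile probe and a step of 1 is a 2-fold difference. Levels of different genes are not compared, since each probe has its own brightness. With 1 array for each genotype and stage, a stage comparison used the 4 genotypes as its replicates and a genotype comparison used the 3 stages, in one additive limma fit over 12 arrays. Its p-values therefore measure how well genotypes or stages agree, not the spread between mice. Calls are at a Benjamini-Hochberg adjusted p under 0.05 over all 27081 features.

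From DN1 to DN2 both T-box genes fell and the other 5 members were lower without passing the test. Of the 7 members 2 were called, both lower, against 1.39% of all features (376 features, 49 higher and 327 lower). The median change of the 7 was -1.45, against 0.14 over all features. A scaling on the probes well above background on all arrays moved that overall median to 0.01, and all 7 changes stayed below 0 under it and under quantile normalisation.

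**Figure D1:**
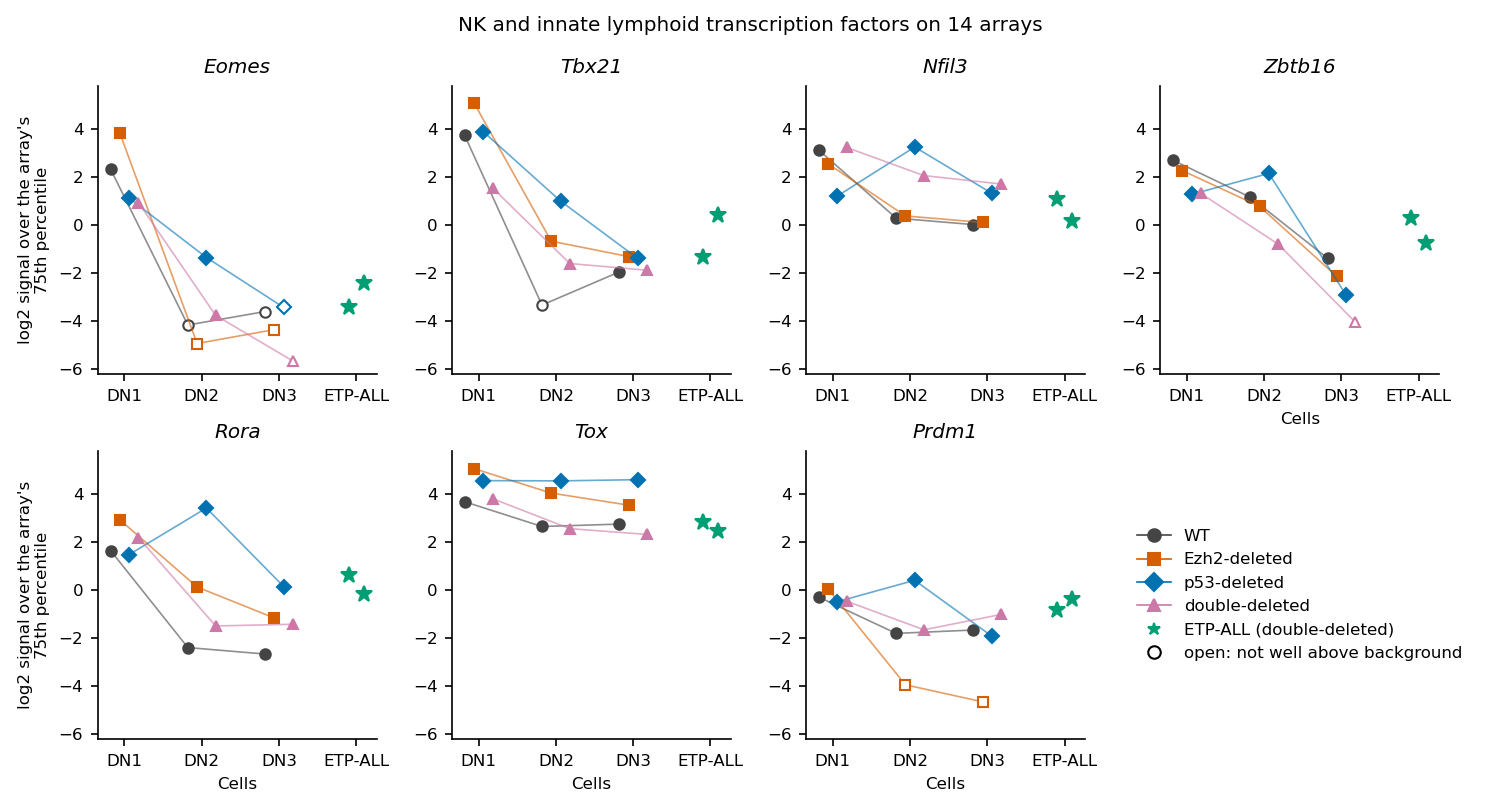
Level of each member (log2 signal over the array's 75th percentile, y axis) in DN1, DN2 and DN3 cells of 4 genotypes, joined by lines, and in the 2 leukemias (stars), with open symbols where the probe was not well above background. Eomes and Tbx21 were higher on all 4 DN1 arrays than on any DN2 array, and the p53-deleted DN2 array (blue) was the highest DN2 array for all 7 genes.

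Eomes was at 2.34 in WT, 3.84 in Ezh2-deleted, 1.13 in p53-deleted and 0.95 in double-deleted DN1 cells. In DN2 cells the same genotypes gave -4.15, -4.92, -1.34 and -3.75, and the first 2 of these were not well above background. No DN1 array overlapped a DN2 array, and 1.66% of features with a value on every array were lower on all 4 DN2 arrays. The fitted change was -5.60 ± 0.82 (SE, 4 genotypes, limma adjusted p = 0.0132, lower in 4 of 4 genotypes). Within single genotypes the fall was at least 44.8-fold in WT and at least 98.4-fold in Ezh2-deleted cells, where DN2 gives only a bound, and 25.9-fold in double-deleted and 5.54-fold in p53-deleted cells. In DN3 cells Eomes was well above background on none of the 4 arrays, with measured values of -3.59, -4.34, -3.42 and -5.65. The second Eomes probe was well above background in WT, Ezh2-deleted and double-deleted DN1 cells alone. It fell at least 4.44-fold from DN1 to DN2, with p53-deleted DN1 kept at its measured -3.17. It passed the filter on dim signals through DN1 arrays only, so it adds no separate support for the fall.

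Tbx21 followed the same course. DN1 cells gave 3.74 in WT, 5.10 in Ezh2-deleted, 3.90 in p53-deleted and 1.56 in double-deleted cells, and DN2 cells gave -3.32, -0.66, 1.01 and -1.59, of which the WT value was not well above background. The lowest DN1 array, double-deleted, was above the highest DN2 array, p53-deleted. The fitted change was -4.72 ± 0.69 (SE, limma adjusted p = 0.0132, lower in 4 of 4 genotypes). DN3 cells were at -1.94, -1.30, -1.38 and -1.87, all well above background, so that Tbx21 was still measured at a stage where Eomes was not. Between DN2 and DN3 the fitted difference was -0.48 ± 0.69 (95% interval -2.05 to 1.09).

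Both calls rest on single arrays. Eomes lost its call without WT DN1 (adjusted p = 0.0691), WT DN2 (0.0653) or Ezh2-deleted DN2 (0.0506), and Tbx21 lost it without WT DN1 (0.063), Ezh2-deleted DN1 (0.0598) or Ezh2-deleted DN2 (0.0747), while with any 1 array left out the changes stayed between -6.42 and -4.02. Normexp background correction gave -3.25 for Eomes (adjusted p = 0.00336). With slide as a block, which here leaves double-deleted DN1 without weight because it is alone on its slide, both kept the call (adjusted p = 0.0355 for Eomes and 0.0118 for Tbx21). Without the 6 arrays of slide 2 Tbx21 lost it (-5.11, adjusted p = 0.102). Within slide 1 alone, where WT DN1 was the only DN1 array, the changes were -5.87 for Eomes and -6.65 for Tbx21. Within slide 2 alone they were -5.61 (adjusted p = 0.558) and -4.33 (0.287).

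Markers of mature NK cells moved with the T-box genes. From DN1 to DN2 all 7 such markers were below 0, with a median of -6.39 against 0.14 over all features. Limma called 5 of them lower, against 1.39% of all features. The called genes were Klra7 (-7.71 ± 0.56), Klrd1 (-7.17 ± 0.65), Klre1 (-6.46 ± 0.56), Klrb1c (-6.39 ± 0.96) and Klrk1 (-4.24 ± 0.66), all receptors of NK cells. Klrb1c was above background on 2 of 4 DN2 arrays and the other 4 on 1 of 4, the p53-deleted array, so these sizes rest on values at background. Those other 4 met the filter on dim signals only through DN1 arrays. The mean level of the 7 was 1.30 to 4.11 on DN1 arrays with 7 of 7 well above background on each. On DN2 arrays it was -3.73 to -0.27, with 1 of 7 above background in WT and double-deleted, 3 of 7 in Ezh2-deleted and 7 of 7 in p53-deleted cells. On DN3 arrays it was -3.98 to -3.0 with 1 of 7, Gzma, above background, and Ncr1, Klrb1c, Klra7, Klrd1, Klre1 and Klrk1 were not. In a bulk sample fewer NK cells and less RNA per cell cannot be told apart, and the part of NK cells in the T-box result was not tested. B cell markers were above background on DN1 arrays too (3 of 3 tested, mean -1.90 to 1.21) and on no DN2 array.

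**Figure D2:**
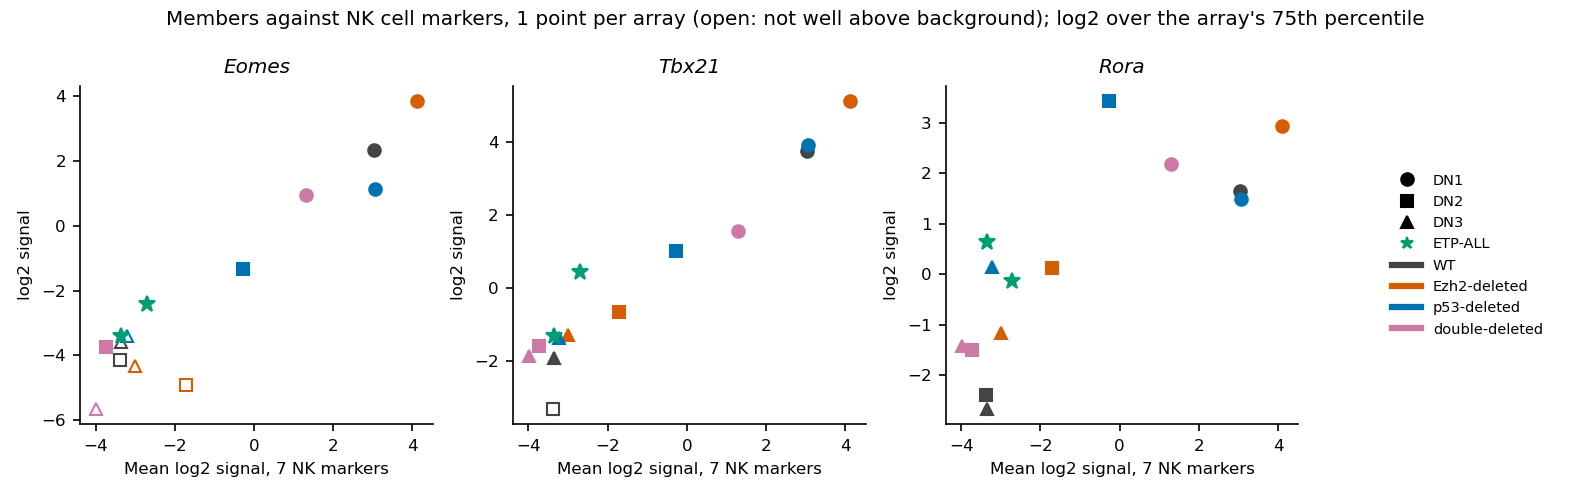
Level of Eomes, Tbx21 and Rora (y axes) against the mean level of the 7 NK cell markers (x axes) on each of the 14 arrays, both as log2 signal over the array's 75th percentile, with color for genotype and shape for stage. Eomes and Tbx21 rise with the marker mean from DN3 to DN1 arrays, and the p53-deleted DN2 array, at a marker mean of -0.27, has the highest Rora level of all (3.42).

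Genes known as targets or partners of the T-box factors in NK cells were mostly lower at DN2. This list shares Ncr1, Klrb1c and Gzma with the NK markers above, so the lists are not separate evidence. Of 17 such genes limma called 5 lower and 0 higher, against 1.39% of all features. By direction 15 were below 0 and 2 above, with a median change of -3.39 against 0.14 over all features. The called genes were Klrb1c, the chemokine receptor gene Cxcr3 (-5.84 ± 1.03, above background on 2 of 4 DN2 arrays), the interleukin-2 and interleukin-15 receptor chain Il2rb (-5.20 ± 1.01), the death ligand gene Fasl (-3.62 ± 0.68) and the sphingosine-1-phosphate receptor gene S1pr5. S1pr5 was at least 7.15-fold lower and above background on no DN2 array. It was above background on DN1 arrays only and passed the filter through them, so its call is no support for the fall. Ifng, the classical T-bet target, was at -3.39 ± 0.75 (adjusted p = 0.0729) and Gzmb at -3.56 ± 0.76 (0.0651), neither called. The mean of the 17 was 1.11 to 3.52 on DN1, -2.32 to 1.1 on DN2 and -2.58 to -2.26 on DN3 arrays.

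Among 13250 named genes compared over all 14 arrays, those most like Eomes were Klra7 (Pearson r = 0.955), Wfdc17 (0.955) and Klre1 (0.954), and those most like Tbx21 were Klri2 (0.952), Klrc1 (0.952) and Klre1 (0.951). All but Wfdc17 encode NK receptors of the killer lectin-like family. Eomes and Tbx21 correlated with each other at r = 0.94 over the 14 arrays, the highest of the 21 pairs of members, which ranged down to 0.14 for Tox and Prdm1. These correlations are descriptions over arrays that share stages, genotypes and slides.

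Nfil3 was well above background on all 14 arrays. Its DN1 levels were 3.13 in WT, 2.56 in Ezh2-deleted, 1.22 in p53-deleted and 3.24 in double-deleted cells, its DN2 levels 0.30, 0.39, 3.26 and 2.07, and its DN3 levels 0.03, 0.12, 1.33 and 1.72. The p53-deleted genotype ran the other way from the rest, with its lowest level at DN1. The fitted DN2 minus DN1 change was -1.03 ± 0.66 (adjusted p = 0.396). Without p53-deleted DN1 it was -1.85 (adjusted p = 0.0389). The 3 genes most like Nfil3 over the arrays were C9orf72 (r = 0.864), Sgpl1 (0.863) and St6gal1 (0.859).

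Zbtb16 was lower in DN3 than in DN2 cells of every genotype. DN1 cells were at 2.71 in WT, 2.28 in Ezh2-deleted, 1.29 in p53-deleted and 1.33 in double-deleted cells. DN2 cells were at 1.17, 0.79, 2.16 and -0.78, and DN3 cells at -1.37, -2.13, -2.90 and -4.03, the last not well above background. All 4 DN3 arrays were below all 4 DN2 arrays, which held for 0.812% of features. The DN3 minus DN2 change was -3.44 ± 0.46 (95% interval -4.48 to -2.40, lower in 4 of 4 genotypes), with an unadjusted limma p of 3.85e-05 and an adjusted p of 0.075, so that it was not called. In that comparison limma called 0 of 7 members and 6 features in all (0.0222%), with 1 member and 1716 features at an unadjusted p under 0.05, and the median member change was -0.70 against 0.02 overall. Without p53-deleted DN2 the change was -2.85 (adjusted p = 0.0205), and with an intensity trend and robust prior the adjusted p was 0.0237. From DN1 to DN2 it was -1.07 ± 0.46 (adjusted p = 0.243), and -1.66 without p53-deleted DN2 (adjusted p = 0.0137). Gng2 (r = 0.962) and Clnk (0.940) were among the genes most like it.

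Rora was well above background on every array. In DN1 cells it was at 1.65 in WT, 2.93 in Ezh2-deleted, 1.48 in p53-deleted and 2.19 in double-deleted cells. In DN2 cells it was at -2.39, 0.13, 3.42 and -1.49, and in DN3 cells at -2.66, -1.16, 0.15 and -1.42. Thus 3 genotypes were 7.0-fold to 16.4-fold lower at DN2 than at DN1, while p53-deleted cells were 3.86-fold higher, and the fitted change over the 4 genotypes was -2.14 ± 0.83 (adjusted p = 0.21). It was called without p53-deleted DN1 (-3.16, adjusted p = 0.0235), without p53-deleted DN2 (-3.17, 0.0167) and without the 6 arrays of slide 2 (-3.86, 0.0219). Within slide 1 alone, where WT DN1 was the only DN1 array, the change was -4.12. Within slide 2 alone it was -0.43 (adjusted p = 0.935). Fbxo27 (r = 0.975), Slc37a3 (0.963) and Paqr7 (0.963) were most like Rora.

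Tox had the smallest spread of the 7 over all arrays, 6.66-fold from lowest to highest. It was at 3.68 in WT, 5.06 in Ezh2-deleted, 4.56 in p53-deleted and 3.81 in double-deleted DN1 cells, at 2.65, 4.04, 4.55 and 2.56 in DN2 cells and at 2.75, 3.54, 4.60 and 2.32 in DN3 cells. Levels in p53-deleted cells lay within 0.05 of each other over the stages, while the other genotypes were 2.02-fold to 2.38-fold lower at DN2 than at DN1. The DN2 minus DN1 change was -0.83 ± 0.27 (adjusted p = 0.173), and -1.13 without p53-deleted DN1 (adjusted p = 0.025). Its likest genes were Gdap2 (r = 0.969), Cd27 (0.958), which encodes a costimulatory receptor of lymphocytes, and Ccng2 (0.958).

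Prdm1 was at -0.29 in WT, 0.05 in Ezh2-deleted, -0.48 in p53-deleted and -0.46 in double-deleted DN1 cells, a narrow range. DN2 levels spread from 0.41 in p53-deleted cells through -1.65 (double-deleted) and -1.80 (WT) to -3.94 in Ezh2-deleted cells. DN3 levels were -1.66 in WT, -4.65 in Ezh2-deleted, -1.92 in p53-deleted and -1.01 in double-deleted cells. The Ezh2-deleted DN2 and DN3 values were not well above background, and within that genotype Prdm1 was at least 7.14-fold lower at DN2 than at DN1. The fitted DN2 minus DN1 change was -1.45 ± 0.73 (adjusted p = 0.298). Plasma cell markers, a cell type that depends on Prdm1, were at a mean of 1.56 to 3.57 on DN1 and -1.52 to 0.81 on DN2 arrays. Limma called Jchain (-6.86 ± 0.62, adjusted p = 0.00134) and Tnfrsf17 (at least 1.66-fold) lower. Tnfrsf17 was above background on WT and Ezh2-deleted DN1 arrays alone and passed the filter through them, so its call is no support. The part of plasma cells in the Prdm1 levels was not tested. Tfe3 (r = 0.937), Slc39a13 (0.913) and Ifi208 (0.875) were most like Prdm1.

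The p53-deleted DN2 array was the highest of the 4 DN2 arrays for 7 of 7 members, a position it held for 24.5% of all features. For Eomes this is the brighter probe, since the second was above background on no DN2 array and gives no order. From DN1 to DN2 all 7 members were lower in WT, in Ezh2-deleted and in double-deleted cells, against 45.4%, 37.3% and 42.2% of features in these genotypes, but 3 of 7 in p53-deleted cells, against 50.2%. On the p53-deleted DN2 array 7 of 7 NK markers were above background, and 5 of 5 gamma delta T cell markers, as on the Ezh2-deleted DN2 array. The gamma delta mean was 1.70 on the p53-deleted array against -2.07 to 0.12 on the other DN2 arrays. Il2ra, the CD25 gene of the DN2 gate, was at 5.42, below 6.54 to 7.74 on the others, and p53-deleted DN3 cells were also the lowest of their stage (5.38 against 6.53 to 7.41). The part of these markers in the member levels was not tested.

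**Figure D3:**
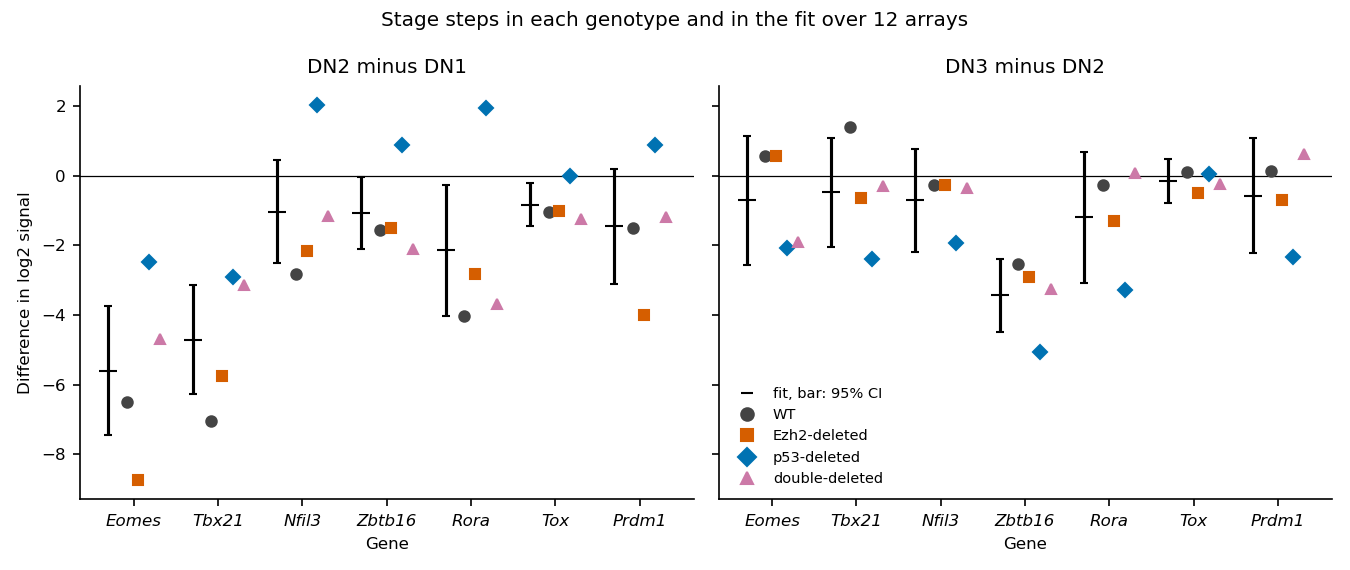
Difference in log2 signal between consecutive stages for each member (x axis), as the fit over 12 arrays with its 95% interval (black) and as the single-array difference in each genotype (colored), including steps that end below background. In the DN2 minus DN1 panel p53-deleted cells (diamonds) are above the other genotypes for every gene, from -2.9 for Tbx21 to 2.04 for Nfil3.

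Of 24 other regulators of NK and innate lymphoid development 23 were tested, and limma called 0 of them from DN1 to DN2, against 1.39% of all features, with a median change of -0.62 and 19 below 0. Id2, the inhibitor of E proteins required by all innate lymphoid cells, changed by -1.71 ± 0.68 (adjusted p = 0.219). Tcf7 and Bcl11b, which act in T cell commitment, were at 0.19 ± 0.25 and 0.37 ± 0.20 without a call. Of 16 tested genes of innate lymphoid precursors and helper innate lymphoid cells limma called 1 lower and 0 higher, with 12 below 0 and 4 above. The called gene was Pdcd1 (-2.26 ± 0.40, adjusted p = 0.0314), which encodes the receptor PD-1 found on those precursors. From DN2 to DN3 limma called 0 of these 23, 0 of these 16 and 0 of the 17 T-box partner genes. The share of all features called there was 0.0222%, and the 3 lists had medians of -0.32, -0.88 and -1.51.

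Few members were called between genotypes. In double-deleted cells limma called 0 of 7 members against WT, where 7.17% of all features were called, with 1 member at an unadjusted p under 0.05. That member was Zbtb16, lower in double-deleted cells at 3 of 3 stages by 2.62-fold at DN1 and 3.85-fold at DN2. At DN3 the double-deleted level of -4.03 was not well above background, against -1.37 in WT. Its fitted difference was -2.0 ± 0.53 (95% interval -3.20 to -0.80, adjusted p = 0.0554). Within slide 1 alone, which held WT DN1 but no double-deleted DN1, it was -2.30 ± 0.29 (adjusted p = 0.0747). The call appeared without p53-deleted DN1 (adjusted p = 0.0453), without p53-deleted DN2 (0.00717), under normexp background correction (-1.40, 0.0187), with genes above background on at least 4 arrays (0.048) and with an intensity trend and robust prior (0.0366). Nfil3 was higher in double-deleted cells at 3 of 3 stages, by 1.08-fold, 3.41-fold and 3.23-fold, with a fitted difference of 1.19 ± 0.76 (95% interval -0.53 to 2.9, adjusted p = 0.347). Of the 7 NK markers 0 were called, with 6 below 0 and 1 above (median -1.11, against -0.11 over all features). Of the 17 T-box partner genes 1 was called lower and 0 higher, with 13 below 0 and 4 above (median -0.91).

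Tox was the one member called in both single deletions. Against WT it was higher in Ezh2-deleted cells by 1.19 ± 0.32 (adjusted p = 0.0189, 3 of 3 stages) and in p53-deleted cells by 1.54 ± 0.32 (adjusted p = 0.0055, 3 of 3 stages). Those comparisons called 1 of 7 members against 35.3% of features and 2 of 7 members against 36.5% of features, shares of the members no larger than the background. All single-deleted arrays were on one slide and all WT arrays on another, so that slide and genotype cannot be told apart here. The Ezh2 call was lost under the scaling on probes above background everywhere (0.96, adjusted p = 0.0695), under quantile normalisation (0.97, 0.0612), and without WT DN1 (0.0503), WT DN2 (0.0765), Ezh2-deleted DN1 (0.075) or Ezh2-deleted DN2 (0.0659). The p53 call held in 21 of 21 alternatives (adjusted p 0.001 to 0.0286).

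Rora was the second member called in p53-deleted cells, at 2.82 ± 0.96 above WT (adjusted p = 0.0465). Stage by stage p53-deleted cells were 1.12-fold lower at DN1, 56.4-fold higher at DN2 and 6.99-fold higher at DN3. The call was lost in 14 of 21 alternatives, including both other scalings (0.0719 and 0.0613) and leaving out any 1 array other than WT DN1 or p53-deleted DN1 (adjusted p up to 0.17, without WT DN2), and without p53-deleted DN2 the difference was 1.45 (adjusted p = 0.126). Zbtb16 was called lower in p53-deleted cells without p53-deleted DN2 (-1.45, adjusted p = 0.0124, against -0.66 ± 0.53 and 0.357 with it), and Nfil3 higher without p53-deleted DN1 (1.87, 0.0261, against 0.78 ± 0.76 and 0.446). In Ezh2-deleted cells Rora was above WT at 3 of 3 stages by 1.77 ± 0.96 (adjusted p = 0.18), called without p53-deleted DN1 (0.0454) or p53-deleted DN2 (0.0399). Tbx21 was above WT at 3 of 3 stages in both genotypes, by 1.55 ± 0.80 and 1.68 ± 0.80 (adjusted p = 0.16 and 0.129). Of the 17 T-box partner genes limma called 3 higher in p53-deleted cells and 2 lower. It called 4 of the 16 innate lymphoid genes higher and 1 lower, 3 of the 23 other regulators higher and 1 lower, and 0 of 7 NK markers. Each of these shares was below the 36.5% of all features. Il18r1 is in both the T-box partner and the innate lymphoid list, and Zeb2 in both the T-box partner and the regulator list, so each is counted in both. The genes that rose included Il18r1 (5.10 ± 1.55), Il2rb (4.45 ± 1.17) and Cxcr6 (4.13 ± 1.41), receptors found on NK and innate lymphoid cells, which in WT were above background on 1, 2 and 2 of 3 arrays. Ifng (-3.22 ± 0.87) and Zeb2 (-3.01 ± 0.38), which encodes a factor of terminal NK maturation, fell. In Ezh2-deleted cells limma called 2 of the 17 higher, Gzma by 1.78 ± 0.46 and Il12rb2 by 0.74 ± 0.25. It called 2 of the 16 higher (Pdcd1 and Thy1) and 4 of the 23 (Bcl11b, Bach2, Ets1 and Tox2). No gene of these lists was called lower, and the shares called were again below the background of 35.3%.

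**Figure D4:**
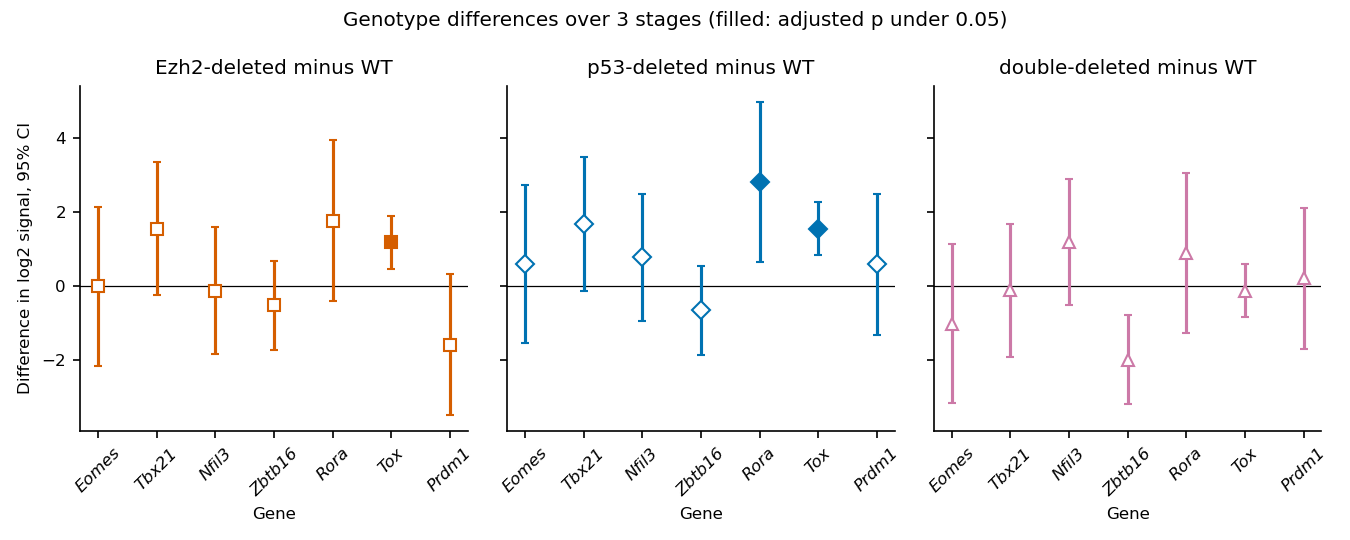
Fitted difference from WT over 3 stages for each member (x axis), in log2 signal with 95% intervals, in Ezh2-deleted, p53-deleted and double-deleted cells, filled where the adjusted p was under 0.05. Filled symbols are Tox in both single deletions and Rora in p53-deleted cells, and no member is filled in double-deleted cells.

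The single deletions shared a slide, but the sex-linked genes differed between them. Xist was above background on all Ezh2-deleted arrays and on no p53-deleted array, and a part of sex in these differences was not tested. Limma called 0 of 7 members between Ezh2-deleted and p53-deleted cells, against 3.98% of features, with 1 member at an unadjusted p under 0.05. That was Prdm1, 2.18 ± 0.84 lower in Ezh2-deleted cells (95% interval -4.09 to -0.27, adjusted p = 0.197), with 1 of 3 Ezh2-deleted and 3 of 3 p53-deleted arrays above background. Leaving out Ezh2-deleted DN1 turned it into a call (adjusted p = 0.0356), and likewise the difference from WT (adjusted p = 0.0155, against 0.17 with that array), but both remaining Ezh2-deleted values were not well above background, so that the size of these differences was not measured. Between these genotypes Zeb2 was 2.94 ± 0.38 and Bcl11b 1.05 ± 0.23 higher in Ezh2-deleted cells, and Id3, an inhibitor of E proteins, 1.43 ± 0.30 lower.

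Means over the other gene compared 6 arrays with 6, with arrays of both main slides on each side. For Ezh2 deletion over p53 status limma called 0 of 7 members (3.94% of features), and for p53 deletion over Ezh2 status 0 of 7 (7.87% of features), each with 1 member at an unadjusted p under 0.05. In both that member was Zbtb16, at -0.93 ± 0.37 (adjusted p = 0.21) and -1.06 ± 0.37 (0.112). Tox, called against WT in each single deletion, was at -0.25 ± 0.22 (95% interval -0.75 to 0.26) and 0.11 ± 0.22 (-0.39 to 0.62) in these means. For p53 deletion 1 member was called without p53-deleted DN1 (Nfil3, 1.60, adjusted p = 0.0371), without p53-deleted DN2 (Zbtb16, -1.46, 0.0116) or without Ezh2-deleted DN1 (Prdm1, 1.77, 0.0492). Of the other regulators limma called 1 higher with Ezh2 deletion, Gata2 (at least 4.19-fold, above background on 4 of 6 deleted and 0 of 6 other arrays). Gata2 passed the filter through arrays of Ezh2-deleted, double-deleted and leukemic cells alone, so its call is no support for an effect of the deletion. With p53 deletion Id3 was called higher (1.06 ± 0.22) and Zeb2 lower (-1.88 ± 0.27).

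In the leukemias Eomes was at -3.39 in ETP-ALL 13 and -2.41 in ETP-ALL 19, Tbx21 at -1.33 and 0.43, and all 4 values were well above background. Nfil3 was at 1.09 and 0.20, Zbtb16 at 0.31 and -0.75 and Rora at 0.64 and -0.14. Tox was at 2.85 and 2.47 and Prdm1 at -0.81 and -0.38. For 6 of 7 members, all but Prdm1, both leukemias were below all 4 DN1 arrays, which held for 11.4% of features. For 5 of 7, all but Nfil3 and Tox, both were above double-deleted DN2 and DN3, which held for 28.9%. The 2 leukemias differed by 1.30-fold (Tox) to 3.39-fold (Tbx21).

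Against double-deleted DN2 cells, the sorted stage of the leukemias, limma called 0 of 7 members (2.51% of features), and none had an unadjusted p under 0.05. Both leukemias were above the double-deleted DN2 array for Rora (4.36-fold and 2.54-fold), Tbx21 (1.20-fold and 4.07-fold), Eomes (1.28-fold and 2.52-fold), Prdm1 (1.80-fold and 2.42-fold) and Zbtb16 (2.12-fold and 1.02-fold). For the first 4 the fitted differences were 0.80 ± 1.13, 1.60 ± 1.02, 1.54 ± 1.13 and 0.74 ± 0.99, with intervals that reach from -1.73 to 4.07. These set the leukemias against the level that the additive fit gives for double-deleted DN2 cells, not against that single array. They can therefore lie outside the folds measured on the arrays.

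Against double-deleted DN1 cells limma also called 0 of 7 members (3.43% of features), with 3 at an unadjusted p under 0.05. These were Eomes (-4.06 ± 1.13, adjusted p = 0.0868), Tbx21 (-3.12 ± 1.02, 0.133) and Nfil3 (-2.62 ± 0.91, 0.154). The level compared with was again the estimate of the additive fit. The measured double-deleted DN1 array exceeded ETP-ALL 13 and ETP-ALL 19 by 20.3-fold and 10.3-fold for Eomes. For Tbx21 it did so by 7.42-fold and 2.19-fold, and for Nfil3 by 4.43-fold and 8.22-fold. The second Eomes probe, above background in double-deleted DN1 cells and in neither leukemia, was at least 4.13-fold lower in the leukemias. It passed the filter on dim signals through DN1 arrays only, so it adds no separate support for an Eomes difference here. Eomes and Nfil3 were called without p53-deleted DN1 (adjusted p = 0.0338 and 0.0231) or p53-deleted DN2 (0.0404 and 0.0499), and Eomes and Tbx21 under normexp background correction (0.0148 and 0.0387). Limma called 5 of 7 NK markers lower in this comparison, Klra7 by at least 40.2-fold. Of the 7 only 1, Gzma, was above background on each leukemia, at marker means of -3.35 and -2.71. Ncr1, Klrb1c, Klra7, Klrd1, Klre1 and Klrk1 were not well above background in either leukemia. Both leukemias were alone on their slide, so leukemia and slide cannot be told apart.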

How the data were processed

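Total RNA (20 ng) from sorted cells was hybridised in 1 color, per the labels' protocols. The intensity values are the processed signals of Agilent Feature Extraction 10.7.1.1, background-corrected by that software, per the file headers. The authors' deposited value table is the same intensity divided by a constant per array (75th percentile 1.002 to 1.004, medians 0.065 to 0.105). Spots marked as outliers were left out, spots of one of 55681 probes averaged, and log2 values centred on each array's 75th percentile. Probes were named through RefSeq accessions (27656 with 1 symbol, 28025 with none), since the files hold no gene symbols.

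A gene was its brightest probe, well above background on at least 2 of 14 arrays. Genotype and stage were fitted additively with limma 3.58.1 in R 4.3.3 (leukemias as a further term over 14 arrays), tested on simulated data. At-least folds set each array of a group with no signal well above background at that array's lowest such signal, or at its own value if higher. Arrays of the brighter group kept their measured values, also where dim, as for the second Eomes probe, Tnfrsf17 and Gata2. Each genotype and stage has 1 array, and the number of arrays limits the precision. Correlated genes were the 3 highest by Pearson r among genes above background on at least 4 arrays, of which 1 is not reported here. Members and lists were chosen with earlier results of these data known. Every member is named, and genes of other lists where called (Ifng, Gzmb, Id2, Tcf7 and Bcl11b from DN1 to DN2 were named after their values were seen). Slides were read from the file headers. Alternatives were other scalings, normexp background correction, filters, every probe as a feature, the deposited table, another limma prior, slide settings and leaving out each array.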

Additional observations from a re-analysis of the deposited data

Results flagged for a closer look

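The listed steps ran one way in 1 genotype and the other way in the other 3, with 1 array on each side, and the difference itself was not tested. From DN1 to DN2 the log2 difference in p53-deleted cells was 2.04 for Nfil3 against -2.83 to -1.17 in the other genotypes. For Rora it was 1.95 against -4.04 to -2.81. For Prdm1 it was 0.89 against -3.99 to -1.19, and for Zbtb16 0.87 against -2.10 to -1.49. From DN2 to DN3 Tbx21 differed by 1.39 in WT cells, where the DN2 value was not well above background, against -2.39 to -0.28. Rora differed by 0.07 in double-deleted cells against -3.27 to -0.26. In 21 groups of 4 arrays (7 members at 3 stages) no single array stood apart by Dixon's 95% criterion.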

How the results depend on the processing

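Each member's change was recomputed under other scalings, background correction, filters, the deposited table, slide settings and leaving out each array, 1603 values in all. Of these 1463 kept their direction and side of the threshold, 80 uncalled values changed sign, 29 gained and 31 lost a call, and 0 called values reversed. Within slide 1 WT DN1 was the only DN1 array, so calls from DN1 to DN2 are not given for it. The number of members called from DN1 to DN2 (2) was 0 within slide 2 and 0 to 5 with an array left out (5 without p53-deleted DN1). For DN3 minus DN2 (0) it was 1 with an intensity trend and robust prior and 0 to 1 with an array left out. For double-deleted minus WT (0) it was 1 under normexp, with at least 4 arrays above background and with trend and robust prior, and 0 to 1 with an array left out. For Ezh2-deleted minus WT (1) it was 0 under both other scalings and 0 to 2 with an array left out. For p53-deleted minus WT (2) it was 1 under both other scalings, normexp and no filter, and 1 to 3 with an array left out. Leaving out an array gave 0 to 1 for Ezh2-deleted minus p53-deleted and for the mean p53 effect. For the leukemias against double-deleted DN1 (0) normexp gave 2 and leaving out an array 0 to 2. The causes were not tested. Features called from DN1 to DN2 (376) ranged from 5 within slide 2 to 610 with trend and robust prior. With an array left out the fewest were 145 (Ezh2-deleted DN2 out) and the most 2582 (p53-deleted DN1 out). For double-deleted minus WT (1942) they ranged from 308 within slide 1 to 9862 under normexp. Leaving out all 6 arrays of slide 2 was chosen after seeing the data. Slide could not be fitted as a block for either single deletion against WT or for the leukemias. No paired analysis was possible because every genotype and stage has 1 array and so no replicate numbers to pair. The additive fit already compares stages within genotypes. Eomes in DN2 and DN3 cells lies at the edge of the background, which limits how large its fall can be said to be.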
